A study of Mus musculus with 8 samples.

Results

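The Ikaros family consists of 5 zinc finger transcription factors encoded by Ikzf1 (Ikaros), Ikzf2 (Helios), Ikzf3 (Aiolos), Ikzf4 (Eos) and Ikzf5 (Pegasus), and their RNA was followed here in clonally expanded and polyclonal memory CD8 T cells of old mice. All probe sets whose platform gene symbol is 1 of these 5 names were taken, which gave 13 probe sets for 5 of the 18194 genes named on the array. The family was singled out because Helios was already known to be lower in most of the expansions, so the Helios differences between expansions and partners below are descriptions and carry no test.

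Family members bind DNA through zinc fingers near the start of the protein and pair with themselves and with each other through a further set of fingers at the end. They recruit chromatin complexes, the NuRD remodelling and deacetylase complex above all, and can silence or maintain genes of lymphocyte development and activation. Ikaros and Aiolos are abundant in lymphocytes in general, whereas Helios and Eos are best known from regulatory T cells, and Helios is also found in subsets of CD8 T cells and after activation.

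Each of 4 female mice gave an expansion, a population of CD8 T cells grown from a single clone that shares 1 T cell receptor, and a polyclonal memory CD8 sample sorted from the same animal. Mice 1 and 2 (20 months) and mouse 3 (23 months) were C57BL/10SnJ and mouse 4 (23 months) was B10.BR. No sample came from a young mouse, and the cells were frozen without culture. All 8 samples were sorted from spleen and lymph nodes as CD8+ CD122+ MHC II- cells. Expansions 1 to 4 carried the receptor chain Vb3, Vb8.1/8.2, Vb8.3 and Vb14, and the partner of each lacked that chain, so an expansion sample is only as clonal as its Vb sort. The labels place expansion 1 in an integrin alpha4-high subclass, which is thus known from 1 clone, while the other 3 expansions are labelled alpha4-low. The descriptions number some expansions differently from the titles, and each sample's own description set its subclass.

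Sort purity was 91, 95, 96 and 98% in expansions 1 to 4 and 97, 75, 66 and 97% in their partners. The Affymetrix values are intensities without detection calls. Background was set for each array at the 95th percentile of the signal of 27 control probe sets against bacterial transcripts not spiked into the samples, and it lay between 33.7 and 61.9. CD8 T cell markers were present on every array, with a summed signal of 20697 to 46135 in alpha4-low expansions and 26053 to 39740 in polyclonal samples. Expansion 4 has a scanner record unlike that of the other 7 arrays, and an effect of the record cannot be told apart from that sample. The number of arrays limits the precision throughout.

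Helios RNA was lower in the 3 alpha4-low expansions than in every polyclonal sample, and higher in the alpha4-high expansion than in its own partner. Probe set 1437542_at read 234, 142 and 284 in expansions 2, 3 and 4, and 1202 in expansion 1. The polyclonal samples of mice 1 to 4 read 727, 1446, 4246 and 1431. The 3 alpha4-low expansions therefore did not overlap with the 4 polyclonal samples, the lowest polyclonal sample lying 2.56-fold above the highest alpha4-low expansion. Expansion 1 lay inside the polyclonal range.

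A further Helios probe set, 1456956_at, gave the same picture. It read 157, 83.0 and 128 in expansions 2, 3 and 4, against 437 in expansion 1. Its polyclonal values were 317, 1085, 2913 and 1360 for mice 1 to 4. Both probe sets were above background on all 8 arrays. Again no alpha4-low expansion reached the lowest polyclonal sample, which was 2.02-fold above the highest of them. The remaining Helios probe set, 1421643_at, read between 2.78 and 19.2 and was not above background on any array, so it gives no level.

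**Figure D1:**
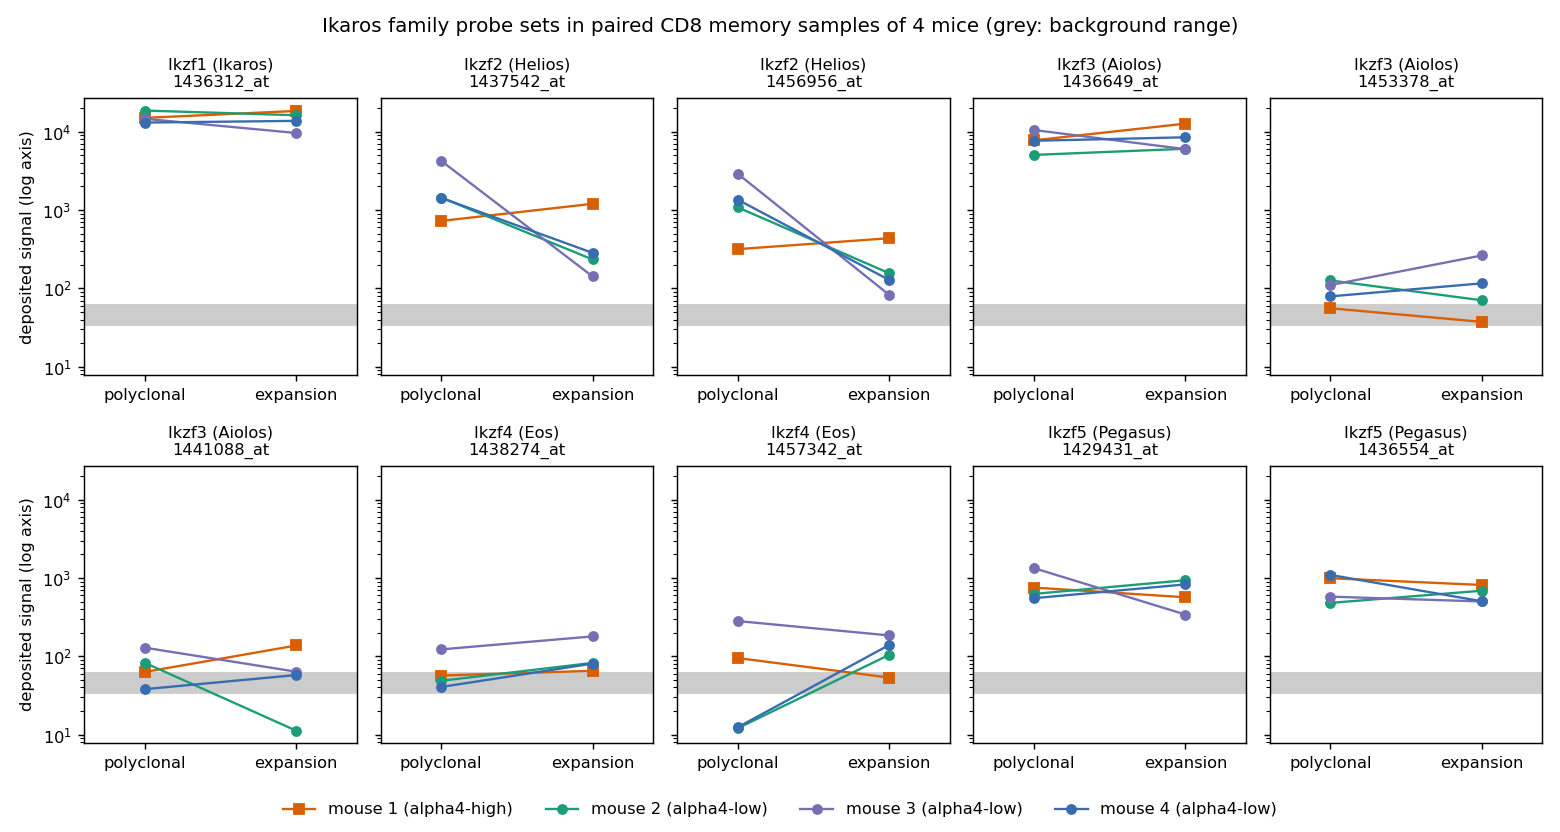
Deposited signal on a log axis for the 10 Ikaros family probe sets that passed the filter on low values, with a line from the polyclonal sample to the expansion of each mouse; squares are mouse 1 (alpha4-high) and circles mice 2 to 4 (alpha4-low), and the grey band is the range of background over the 8 arrays (33.7 to 61.9). In both Helios panels the lines slope steeply down in mice 2 to 4 and up in mouse 1, while the line of Aiolos 1436649_at goes up as far in mouse 1 (0.71) and those of mice 2 to 4 differ by -0.81 to 0.26.

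Both probe sets gave nearly the same order of the samples. Expansion 3 was lowest, then expansions 2 and 4, then polyclonal sample 1, expansion 1, polyclonal samples 2 and 4, and polyclonal sample 3 at the top. The 2 probe sets put expansions 2 and 4 in opposite order, and likewise polyclonal samples 2 and 4, so these neighbours cannot be ranked. Over the 8 arrays their log2 values correlated at 0.97 (Pearson).

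Within the pairs, the log2 difference of 1437542_at, expansion minus polyclonal on the log2(value + 5) scale, was 0.72, -2.60, -4.85 and -2.31 for mice 1 to 4. The ratio of signals was 1.65-fold higher in expansion 1, and 6.18-fold, 29.9-fold and 5.04-fold lower in expansions 2, 3 and 4. For 1456956_at the log2 differences were 0.46, -2.75, -5.05 and -3.36. The mean over the alpha4-low pairs was -3.26 ± 1.39 for the first and -3.72 ± 1.19 for the second (SD, n = 3). Pair 3 was thus the most extreme for both, through the highest polyclonal and the lowest expansion value together. Without it the mean of the first was -2.46 and that of the second -3.05.

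These values chose Helios for study, and the counts over all probe sets are given only to place them. Of 22518 probe sets kept by the filter, 517 (2.30%) had all 3 alpha4-low expansions below all 4 polyclonal samples. In 2017 (8.96%) the signal was lower in every alpha4-low pair and higher in pair 1, as for both Helios probe sets. In 27 (0.120%) the expansion was at least 2 log2 units lower in each of the 3 alpha4-low pairs. Ranked by the mean alpha4-low difference, the Helios probe sets were the 15th and the 20th lowest. The alpha4-low mean minus the pair 1 value was -3.98 for 1437542_at and -4.18 for 1456956_at.

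Among the alpha4-low pairs, the 2 with the less pure partners had the largest differences for 1437542_at but not for 1456956_at. The polyclonal samples of mice 2 and 3, with 75 and 66% purity, belong to the pairs with log2 differences of -2.60 and -4.85 for 1437542_at. For 1456956_at these were -2.75 and -5.05. The polyclonal sample with the lowest purity had the highest Helios signal. In mouse 4, whose samples were 98 and 97% pure, the log2 difference was -2.31 for 1437542_at and -3.36 for 1456956_at. That pair is also the only one of strain B10.BR and holds the array with the differing scanner record. The part of purity in the result was not tested beyond these values. With sort purity as a covariate the alpha4-low difference of 1437542_at was -1.93, against -3.26 without it, and that of 1456956_at -2.93, against -3.72. The fit with this covariate had 1 residual degree of freedom. In sorted cells measured in bulk, fewer Helios-expressing cells and less Helios RNA per cell cannot be told apart.

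Foxp3, which defines regulatory T cells, read 41.6 to 95.4 in alpha4-low expansions and 38.2 to 119 in polyclonal samples, and was above background on 6 arrays. The 119 is polyclonal sample 3, where background was 34.7 and where Helios was also highest and purity lowest. Cd4 read at most 101, again in polyclonal sample 3, and was above background on 2 arrays, those of polyclonal samples 2 and 3. All 4 CD4 T cell markers were measured, with a summed signal of 277 to 345 in alpha4-low expansions and 181 to 419 in polyclonal samples, ranges that overlap. Ncr1, the defining receptor of NK cells, was not above background on any array. The 5 measured NK cell markers of 6 summed to 365 to 4011 in alpha4-low expansions, 5996 in expansion 1 and 1090 to 22710 in polyclonal samples, where Klra8, an Ly49 receptor gene that some memory CD8 T cells also express, read 15079 in sample 2 and 21818 in sample 4. Klra8 was lower in 4 of 4 expansions than in the partner (alpha4-low limma adjusted p = 0.0528). Gzma made up most of the sum in expansions 1 and 4, at 5618 and 2826. Tyrobp, an adaptor of NK cell and myeloid receptors, had the directions of Helios, with log2 differences of 0.53, -0.57, -0.88 and -3.67 in pairs 1 to 4 (alpha4-low limma adjusted p = 0.932), and was under background in expansions 3 and 4. Fcer1g and Gzma of the same list did not keep these directions. In pairs 1 to 4 they differed by 1.57, -0.60, 0.40 and 1.44, and by 3.65, -0.98, -3.70 and 1.97. Fcer1g was above background on 5 arrays. B cell markers, with 5 of 6 measured, summed to 626 to 1266 in alpha4-low expansions and 540 to 1216 in polyclonal samples. Myeloid and dendritic cell markers, all 7 measured, summed to 1431 to 3021 and 1290 to 2234. The 3 measured of 5 NKT and gamma delta T cell markers summed to 57.3 to 203 and 103 to 213, and the 2 measured of 4 red cell markers to at most 52.6 and 95.6. The part of these cells in the Helios values was not tested beyond these levels.

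Ikaros, Aiolos, Eos and Pegasus were chosen by name, as members of a family selected on the lower Helios signal. Earlier results of these data were known at that choice, so the tests of these 4 genes are not free of that knowledge. The 4 genes were fitted with limma over all 22518 probe sets with mouse as a block. In the alpha4-low pairs 12 probe sets (0.0533%) passed a limma adjusted p of 0.05, 11 lower (0.0488%) and 1 higher (0.00444%), and 1150 (5.11%) had an unadjusted p under 0.05. None of the 8 tested probe sets of these 4 genes was among the 12 (0 of 8, limma adjusted p from 0.941 to 0.996). Over all 4 pairs 0 of 22518 probe sets (0%) passed in limma, with 731 (3.25%) at an unadjusted p under 0.05, and the 8 had a limma adjusted p of 0.9998. For the difference between subclasses 12 probe sets (0.0533%) passed, 5 lower (0.0222%) and 7 higher (0.0311%), with 1479 (6.57%) at an unadjusted p under 0.05, and the 8 had limma adjusted p-values of 0.897 to 0.9997 (0 of 8). These tests do not show that the 4 genes were alike in expansions and partners, since the SE of their alpha4-low differences ran from 0.33 to 0.70 on the log2 scale.

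Ikzf1, whose product Ikaros founded the family and is needed for lymphocyte development, was far above background and similar in all samples. Probe set 1436312_at read 18411, 16220, 9632 and 13748 in expansions 1 to 4. Its polyclonal values were 15014, 18625, 14624 and 13082. The groups overlapped and all 8 arrays lay within 1.93-fold of each other, expansion 3 being lowest. The alpha4-low log2 difference was -0.24 (SE 0.33, limma adjusted p = 0.990). Its direction was not stable, since it turned to 0.13 with sort purity as a covariate. The other Ikzf1 probe set, 1421303_at, was above background only in expansion 3 (66.5) and did not pass the filter.

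The Ikzf1 and Ikzf5 promoters are the only ones of the family in the RefSeq promoter table used here (GRCm38.p6, 250 bases before to 50 after a start). The sequence at the downstream Ikzf1 start, chr11:11689927-11690226 on the + strand, is shown because GGGAA is the core that Ikaros itself is known to bind, and its copies, read here as TTCCC, are in capitals. The upstream start of the table holds 0 copies in its window and this one 2.
Ikzf1: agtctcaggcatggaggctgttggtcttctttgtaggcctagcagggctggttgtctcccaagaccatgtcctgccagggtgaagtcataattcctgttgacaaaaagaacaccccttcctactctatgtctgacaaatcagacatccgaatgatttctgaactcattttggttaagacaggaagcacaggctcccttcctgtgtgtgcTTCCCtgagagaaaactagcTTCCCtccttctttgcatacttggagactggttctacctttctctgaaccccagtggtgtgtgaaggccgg
Copies of GGGAA were searched on both strands, and 62.7% of the 32851 promoters of this length hold at least 1, so the match is a description of the letters and not of a bound site.

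Ikzf3, encoding Aiolos, the closest partner of Ikaros in mature lymphocytes, was likewise far above background in all samples. Probe set 1436649_at read 12680, 6060, 5984 and 8487 in expansions 1 to 4. The polyclonal samples read 7765, 5058, 10509 and 7658. The values overlapped, and the alpha4-low pairs differed in direction, with log2 differences of 0.26, -0.81 and 0.15 in mice 2 to 4. The alpha4-low log2 difference was -0.13 (SE 0.37, limma adjusted p = 0.996), and it changed sign with sort purity as a covariate and without pair 3. Expansion 1 was the brightest array, 1.63-fold above its partner. The 2 other probe sets of Ikzf3, 1453378_at and 1441088_at, were above background on 7 and 6 arrays and had alpha4-low differences of 0.31 and -0.95 (limma adjusted p = 0.996 and 0.989).

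Ikzf4 encodes Eos, which works with Foxp3 in regulatory T cells, and its probe sets lay under background on some arrays and up to several fold above it on others. Probe set 1438274_at read 65.3, 82.4, 179.6 and 80.8 in expansions 1 to 4. The polyclonal values were 56.8, 48.7, 122.6 and 40.6, the last of them just under background. It was higher in 4 of 4 expansions than in the partner, as were 4.79% of all tested probe sets (9.99% were higher in the 3 alpha4-low pairs), although the groups overlapped. The alpha4-low log2 difference was 0.72 (SE 0.52, limma adjusted p = 0.989). It stayed positive, between 0.53 and 0.93, in the 12 alternative settings that kept the probe set.

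A further Eos probe set, 1457342_at, was the most uneven of the family after Helios. It read 53.6, 104, 185 and 139 in expansions 1 to 4, and 95.1, 12.1, 282 and 12.4 in the polyclonal samples. It was therefore higher in expansions 2 and 4 and lower in expansions 1 and 3. Polyclonal samples 2 and 4 were under background, so the size of the difference of 1.71 (SE 0.70, limma adjusted p = 0.941) is not exact. Probe set 1460664_at was not above background on any array.

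Ikzf5, encoding Pegasus, the most divergent member and one found in many tissues, was above background in all 8 samples. Probe set 1429431_at read 567, 936, 341 and 828 in expansions 1 to 4, and 754, 626, 1334 and 552 in the polyclonal samples. Its alpha4-low difference was -0.27 (SE 0.53, limma adjusted p = 0.996), the mean of 0.58 in mice 2 and 4 and -1.95 in mouse 3. Without pair 3 its sign was positive. Probe set 1436554_at read 501 to 814 over the expansions and 481 to 1093 over the polyclonal samples, with a difference of -0.27 (SE 0.45, limma adjusted p = 0.995) that turned positive without pair 4. For neither probe set did the groups separate.

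**Figure D2:**
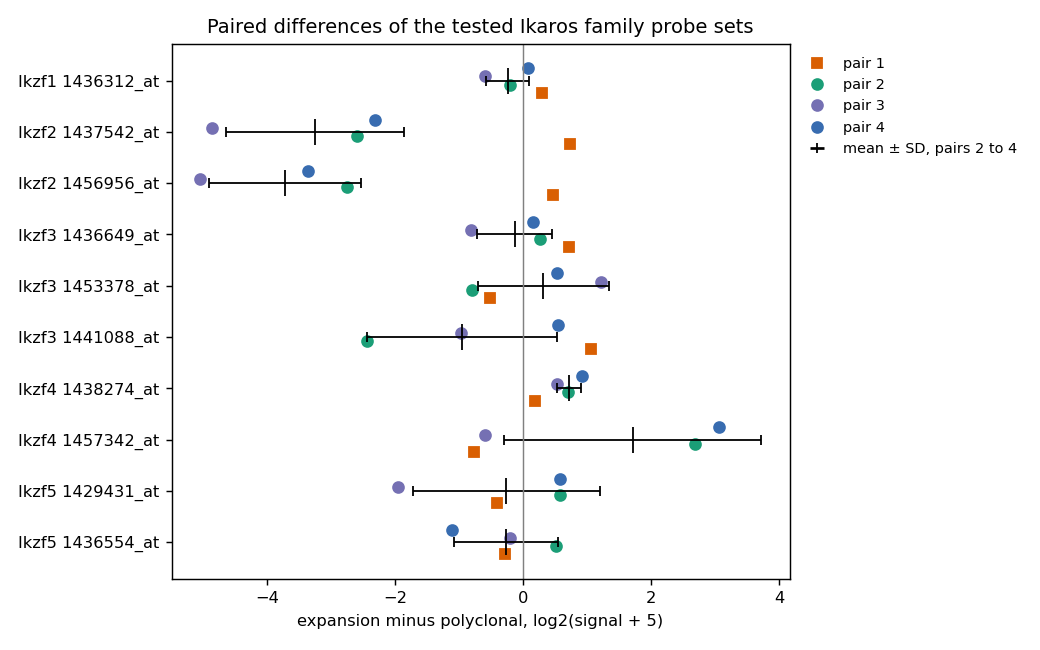
Expansion minus polyclonal difference in log2(signal + 5) for each of the 10 tested probe sets, with 1 point per mouse (square, pair 1; circles, pairs 2 to 4) and the mean ± SD of the 3 alpha4-low pairs as a bar. Only the 2 Helios rows have all 3 alpha4-low points beyond -2, with means of -3.26 and -3.72, whereas the means of the other 8 rows lie between -0.95 and 1.71.

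Set side by side, the paired Helios difference was lower than that of each other tested family probe set in each of the 3 alpha4-low mice. The difference of 1437542_at minus that of 1436312_at (Ikaros) was -2.40, -4.25 and -2.38 in mice 2 to 4. Against 1436649_at (Aiolos) it was -2.86, -4.04 and -2.46. Against 1429431_at (Pegasus) it was -3.18, -2.90 and -2.89, the narrowest spread of these comparisons (SD 0.16, n = 3). The other Pegasus probe set, 1436554_at, did not share this narrow spread, with -3.11, -4.65 and -1.20 (SD 1.73, n = 3). The smallest gap was to Aiolos 1441088_at in mouse 2, at -0.17, where expansion 2 was under background. In mouse 1 the Helios minus Ikaros value was 0.43 and the Helios minus Aiolos value 0.02. Because Helios was chosen for its lower signal, these gaps have no test.

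The polyclonal samples themselves differed in Helios more than in most of the family. Their highest value was 5.84-fold the lowest for 1437542_at and 9.19-fold for 1456956_at. The same ratio was 1.42 for Ikaros 1436312_at, 2.08 for Aiolos 1436649_at, and 2.42 and 2.27 for the 2 Pegasus probe sets. Only the Eos probe set 1457342_at ranged further, 23.4-fold, with 2 values under background. Among the 3 alpha4-low expansions the Helios ratio was 2.00 for 1437542_at and 1.89 for 1456956_at.

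Chromatin partners of the family were described from a list of NuRD subunits, of which 12 of 13 were tested. In the alpha4-low pairs 0 of 12 passed in either direction, with 8 lower and 4 higher and a median log2 difference of -0.25, beside a median of -0.03 and 52.2% lower over the 10407 tested genes. Of these 10407 genes, 6 passed as lower and 1 as higher. A count of 0 in this list and in those below is thus near the share over all genes. Chd4, the ATPase of the complex, had the largest difference at -1.04 (SE 0.52, limma adjusted p = 0.966), where polyclonal sample 2 read 2664 and the other 7 arrays 255 to 842. Without pair 2 it was -0.26. Rbbp7, a histone-binding subunit, had a difference of 0.57 (SE 0.28, limma adjusted p = 0.966), higher in 4 of 4 expansions. Mta3 and Mta2, which tie the subunits together, read -0.80 and -0.67 on the same scale (0.967 and 0.989 as limma adjusted p). Without pair 2, Mta3 was at -0.37 and Mta2 at 0.42, and with sort purity as a covariate Mta2 was at 0.68, so the sign of Mta2 was not stable. Expansion 2 and polyclonal sample 4 were under background for Mta2, and the 2 other Mta3 probe sets gave 0.33 and -0.97. All 4 genes missed the threshold.

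Further corepressor and remodelling partners were spread about 0. All 8 were tested and 0 passed in limma, with 4 lower, 4 higher and a median of -0.0034, or 7 lower and a median of -0.16 where all probe sets of a gene were averaged. Over all 10407 tested genes, 6 passed as lower and 1 as higher. Ctbp1, a corepressor that binds Ikaros and Eos, had a difference of -0.34, the Brg1-associated subunits Smarcc1 and Smarcb1 0.39 and 0.43, and Arid1a -0.29, each at a limma adjusted p of 0.989. Smarcc1 turned to -0.29 without pair 3 and to -0.52 with sort purity as a covariate, Ctbp1 turned to 0.08 with that covariate, and a further Smarcb1 probe set gave -0.65, so the directions of these 3 genes were not stable across settings or probe sets. Thalidomide-type drugs destroy Ikaros and Aiolos in human cells through the cereblon ubiquitin ligase. This ligase had 5 of 5 genes tested and 0 passed, with 3 lower and a median of -0.24. Ddb1, its adaptor, was lower in each alpha4-low pair at -1.10 (SE 0.45, limma adjusted p = 0.941), and at -0.58 without pair 2. Its scaffold genes Cul4a and Cul4b and the RING subunit gene Rbx1 stood at 0.44, 0.27 and -0.45, with 0.989, 0.993 and 0.989 as limma adjusted p. Leaving out single pairs brought Cul4a to between 0.20 and 0.91 and Cul4b down to 0.05.

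Genes reported elsewhere as targets of Ikaros family factors were described in the same way. Of 22, 16 were tested and 0 passed, beside 6 lower and 1 higher of all 10407 tested genes. Among the 16, 9 were lower and 7 higher, with a median of -0.25 (-0.14 where all probe sets of a gene were averaged). Il2, Hes1, Notch3, Dntt, Rag1 and Cd4 did not pass the filter on low values. Ifng, the interferon gamma gene, read 5875, 15926, 701 and 558 in expansions 1 to 4 against 3487, 10780, 3202 and 3395 in partners. It was thus lower in pairs 3 and 4 and higher in pairs 1 and 2, with an alpha4-low difference of -1.41 (SE 0.55, limma adjusted p = 0.939), which was -2.39 without pair 2 and -0.81 without pair 4. Tbx21, the gene of the effector regulator T-bet, Il10 and Myc stood at -0.62, -0.51 and -0.47, each at a limma adjusted p of 0.989. Tbx21 rested on pair 2, where the difference was -1.74, and was at -0.06 without it.

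Among the genes that accompany Helios in regulatory T cells, Ctla4 came nearest the threshold. Of 14, 11 were tested, with 8 lower, 3 higher and a median of -0.20. Among the 11, 0 were called, beside 6 lower and 1 higher of all 10407 tested genes. Ikzf4 belongs to this list too. Ctla4, the gene of an inhibitory receptor, read 109, 10.4 and 82.1 in expansions 2, 3 and 4 and 4214 in expansion 1, against 932, 748, 2134 and 454 in the polyclonal samples. Its alpha4-low difference was -4.08 (SE 0.73, limma adjusted p = 0.0754) and, like Helios, it was higher in pair 1. Expansion 3 was under background, so its size is not exact, and pair 3 decided much of it, since the difference was -2.56 without that pair (limma adjusted p = 3.14e-04). Sort purity as a covariate brought it to -1.64. It also passed without pair 2 (limma adjusted p = 0.0429) and without pair 4 (limma adjusted p = 9.14e-11), the 13 alternatives giving 9.14e-11 to 1 in all and 6 of them a pass. Fits without an alpha4-low pair, here and for Izumo1r and Nrp1 below, had fewer residual degrees of freedom than the 2 of the full fit. Their lower p-values are therefore not stronger evidence. Izumo1r, the folate receptor 4 gene, had a difference of -2.08 (SE 0.57, limma adjusted p = 0.646), lower in 4 of 4 expansions, and passed without pair 3 (-2.83, limma adjusted p = 0.00463) but in no other of its 12 alternatives (up to 0.9999). Expansion 4 was under background at 10.9, so neither size is exact, and without pair 4 the difference was -1.27. Nrp1, a semaphorin receptor gene, read 2251 in polyclonal sample 3 and 94.5 in expansion 3 but 1108 and 3752 in those of mouse 4, giving -1.02 (SE 0.84, limma adjusted p = 0.989). Without pair 4 it was -2.40 (limma adjusted p = 0.0359), without pair 3 it was 0.73, and with sort purity as a covariate 2.41, so its direction rested on single mice. Foxp3 itself had a difference of -0.03 (limma adjusted p = 0.9995).

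Other zinc finger factors of T cells outside the family had 10 of 13 members tested and 0 called, with 7 lower, 3 higher and a median of -0.42. Over all 10407 tested genes, 6 were called lower and 1 higher. Zbtb32, an activation-induced repressor gene, had a difference of -1.56 (SE 0.59, limma adjusted p = 0.919) with expansion 2 under background, and was higher in expansion 1 than in its partner, 268 against 51.9. It was -0.96 without pair 2 and -0.44 with sort purity as a covariate. Egr2 and Egr1, induced by receptor stimulation, stood at -1.41 and -1.04, with 0.944 and 0.963 as limma adjusted p. Pair 3 carried Egr2, with -3.51 against -0.27 and -0.45 in pairs 2 and 4, and without it Egr2 was at -0.36 and Egr1 at -0.60. With sort purity as a covariate Egr2 was at 0.13, and its other probe set gave -0.37. Klf2, a quiescence and egress factor gene, stood at -0.95 (0.965 as limma adjusted p), or -0.46 with that covariate. The lowest fitted difference of this list was that of Zbtb32.

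**Figure D3:**
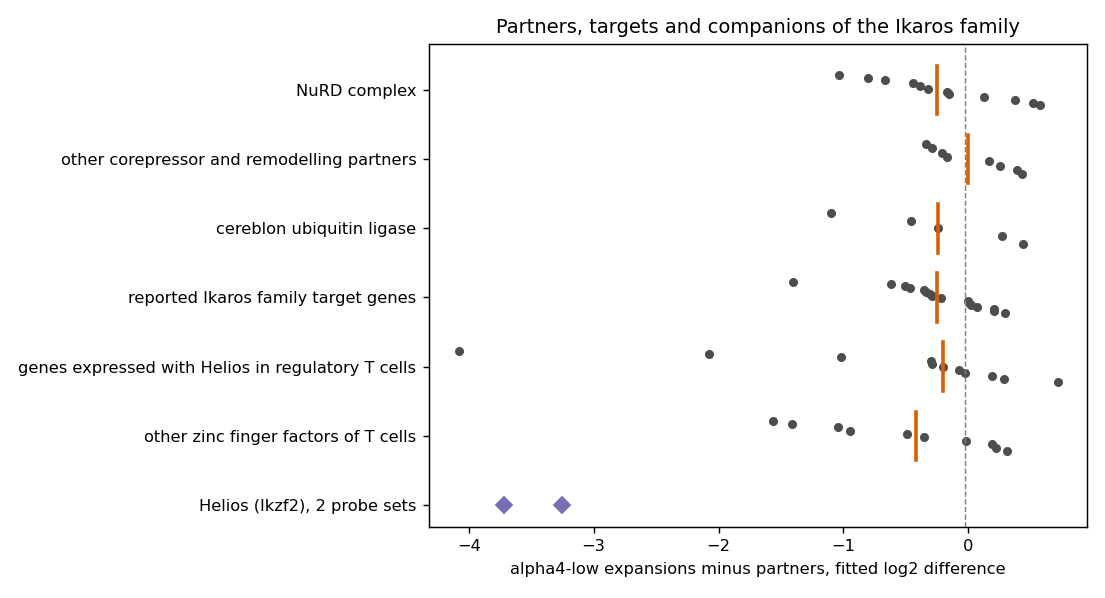
Fitted alpha4-low log2 difference (expansions minus partners) of each tested gene in 6 lists of family partners, targets and companions, 1 point per gene, with the list median in orange, the median of all tested genes (-0.03) as a dashed line and the 2 Helios probe sets as diamonds. Apart from Ctla4 at -4.08 and Izumo1r at -2.08, the points lie between -1.56 and 0.72.

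The genes most like Helios over the 8 arrays were found by the Pearson correlation of log2 values with 1437542_at among 10406 other genes, each by its brightest tested probe set. The 8 highest were Ksr1, a scaffold of the MAP kinase pathway (0.95), B4galt5 (0.93), Gpbp1l1 (0.93), D430042O09Rik (0.93), Aim2, a cytosolic DNA sensor (0.93), Frmd6 (0.92), Gm3924 (0.91) and Naip5, a sensor of bacterial flagellin (0.90). The arrays share their pairs and group structure, and the 99th percentile of the correlation over all genes was 0.79. Aim2 read 13.8, 5.19 and 40.7 in expansions 2, 3 and 4 and 156 in expansion 1, against 44.1, 166, 767 and 47.4 in the polyclonal samples, so several of its values were under background. Naip5 was above background on every array, at 750, 480 and 653 in the alpha4-low expansions, 1511 in expansion 1 and 1016 to 1391 in the polyclonal samples.

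The 4 genes with the lowest correlation ran opposite to Helios. They were Noc4l, which acts in ribosome assembly (-0.98), Cct6a, a chaperonin subunit (-0.93), Cd44, an adhesion receptor of memory T cells (-0.93), and Tmem63b (-0.93). Cd44 read 5588, 7382 and 4948 in expansions 2, 3 and 4 and 3502 in expansion 1, against 4781, 4340, 2773 and 4219 in the polyclonal samples. Every alpha4-low expansion was above every polyclonal sample for it, as in 2.17% of tested probe sets. Cd44 was picked for running opposite to Helios, so this separation is not an independent result. Without pair 3 the correlation was 0.79 for Aim2, 0.74 for Gm3924, -0.81 for Cd44 and -0.80 for Tmem63b. The other family members were less like Helios, with 0.49 for Ikaros 1436312_at, 0.45 for Aiolos 1436649_at, 0.45 for Pegasus 1429431_at and -0.38 for Eos 1438274_at. The Aiolos probe sets disagreed, with 0.57 for 1441088_at and -0.35 for 1453378_at. Pegasus 1436554_at had 0.25 and Eos 1457342_at -0.27.

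**Figure D4:**
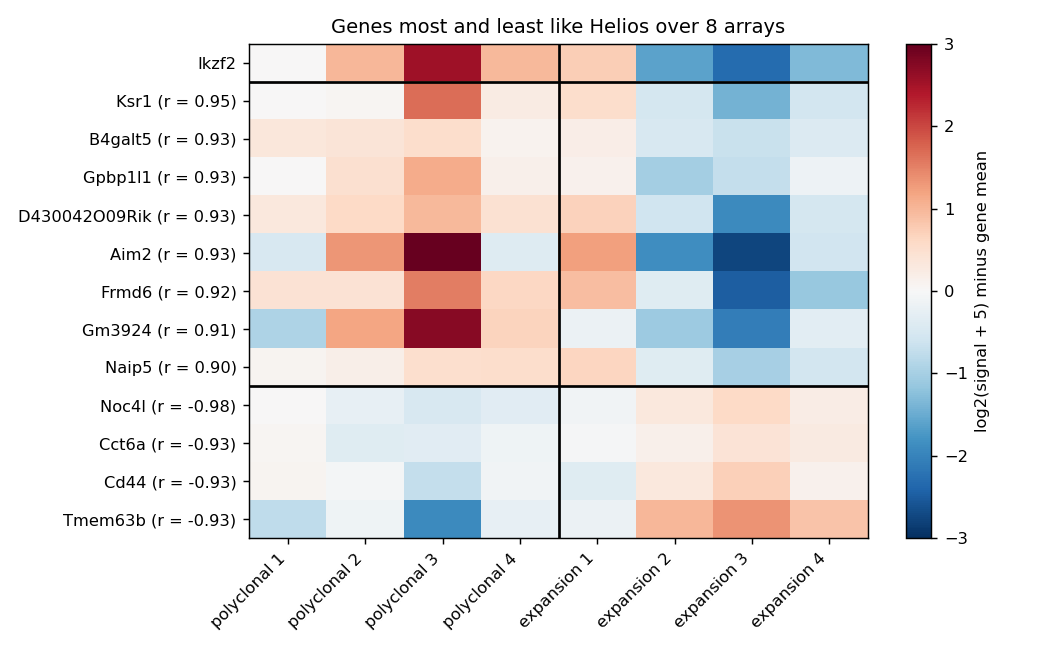
Heat map of log2(signal + 5) minus the gene's mean over the 8 arrays (colour, -3 to 3) for Helios (top row), the 8 genes most like it and the 4 least like it, with polyclonal samples on the left and expansions on the right. Helios is red (above its mean) in polyclonal samples 2 to 4 and expansion 1, near white in polyclonal sample 1 and blue in expansions 2 to 4. Expansions 2 to 4 are blue in the next 8 rows and red in the last 4.

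Promoters of 2 of these genes are printed because they stand for the like and the opposite pattern, and their GGGAA cores are in capitals. Naip5 (chr13:100247287-100247586, - strand) has 2, and Noc4l (chr5:110653333-110653632, - strand) has 0.
Naip5: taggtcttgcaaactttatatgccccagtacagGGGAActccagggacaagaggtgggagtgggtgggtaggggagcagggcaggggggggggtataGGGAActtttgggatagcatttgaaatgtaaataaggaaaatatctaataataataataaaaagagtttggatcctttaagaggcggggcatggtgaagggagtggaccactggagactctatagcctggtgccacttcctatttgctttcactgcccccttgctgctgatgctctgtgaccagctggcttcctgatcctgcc
Noc4l: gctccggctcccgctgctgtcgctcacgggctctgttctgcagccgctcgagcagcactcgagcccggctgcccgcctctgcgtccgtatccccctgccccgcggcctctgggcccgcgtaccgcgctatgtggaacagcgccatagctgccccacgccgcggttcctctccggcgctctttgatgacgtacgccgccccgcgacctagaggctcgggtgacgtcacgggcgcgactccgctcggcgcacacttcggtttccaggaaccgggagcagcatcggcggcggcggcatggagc
Of the promoters in the table, 6 of 9 of the genes most like Helios and 2 of 4 of the least like hold a core, beside 62.7% of all promoters. The core counts of the 2 printed promoters do not stand for their groups. Among the least like, Cd44 has 3 cores and Tmem63b 2, and among the most like, B4galt5 and Frmd6 have 0. A window without these letters says nothing about binding elsewhere.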

How the data were processed

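RNA of 8 samples was measured on Affymetrix Mouse Genome 430 2.0 arrays, each used for 1 sample. The labels' protocols state that RNA was extracted in parallel, amplified in 2 rounds and biotin-labelled; such amplification shifts signal towards 3' ends. The authors deposited 1 linear intensity per array for 45101 probe sets. The submitters' processing notes name MAS5 without a version. Because the 2% trimmed mean is 500.0 on every array, values were not rescaled, and a change in total RNA per cell would not show.

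Values were taken as log2(value + 5), so fold changes of dim probe sets are understated. After 64 control probe sets were removed, those whose mean log2 value exceeded the median entered the tests (22518, with 10 of the 13 family probe sets). The linear models of limma 3.58.1 (R 4.3.3; intensity trend, mouse as a fixed block, two-sided, Benjamini-Hochberg adjustment, threshold 0.05) had 1 coefficient for all expansions or 1 per subclass, and were tested on simulated data. The series design pairs the samples of each mouse; their deviations from the group means correlated at 0.374, 0.0771, 0.214 and 0.338 in mice 1 to 4. Gene names came from the platform annotation, and all 13 family probe sets matched a RefSeq gene by Entrez identifier. Genome coordinates are those of the RefSeq promoter table.

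Members, lists and background level were chosen with earlier results of these data known. Besides the family, the rule named up to 4 genes per list with the largest alpha4-low difference, and the 8 most and 4 least like Helios. Alternatives covered pseudocount, filter, scaling, intensity trend, replicate block, sort purity and the omission of each pair.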

Additional observations from a re-analysis of the deposited data

Results flagged for a closer look

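Helios differed from the partner in opposite directions in the subclasses. It was lower in 3 of 3 alpha4-low expansions and higher in the alpha4-high expansion, and the alpha4-low minus alpha4-high value was -3.98 for 1437542_at and -4.18 for 1456956_at. This difference was not tested, because Helios was chosen with it known.

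Other genes named above were also lower in every alpha4-low pair and higher in pair 1, as were 8.96% of all tested probe sets. Among them, with the alpha4-low minus alpha4-high value, were Ctla4 (-6.25), Zbtb32 (-3.83), Egr2 (-2.72), Tyrobp (-2.24), Il10 (-2.06), Klf2 (-1.91) and Ddb1 (-1.28). The genes most like Helios, apart from B4galt5, had these directions too. Those genes were picked for running with Helios over the same arrays, so their directions are not an independent result. With a single alpha4-high pair these values are descriptions, since the spread within that subclass is not known.

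Single samples stood far from the rest of their group in 3 of 66 groups of 4 values examined, where chance gives about 1 in 20. Polyclonal sample 2 read 10780 for Ifng, polyclonal sample 3 read 1643 for Egr2, and the paired difference of Il10 was 1.56 in pair 1.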

How the results depend on the processing

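The Helios difference in the alpha4-low pairs was negative under all 13 alternatives, between -3.73 and -1.93 for 1437542_at and between -4.20 and -2.93 for 1456956_at. Helios was chosen for this lower signal, so its kept sign is a description and adds no support. Both Eos probe sets kept their sign in the 12 alternatives that held them, while those of the 6 other family probe sets did not keep it in all. The number of probe sets called in limma over the whole array varied between settings. For the alpha4-low pairs it was 12, and it was 22 with a stricter filter, 42 with median centring, 6 with quantile normalization, and 0 without an intensity trend (1097 at an unadjusted p under 0.05). Without the replicate block it was 0 (621 at an unadjusted p under 0.05). For the difference between subclasses it was 12, and it was 29 with a pseudocount of 32, 25 without a filter, 64 with a stricter filter, 70 with median centring and 143 without the replicate block. It was 0 with a pseudocount of 1, with quantile normalization and without an intensity trend (1541, 1556 and 1572 at an unadjusted p under 0.05). Leaving out a pair gave 0 to 20 calls over all pairs, 18 to 148 for the alpha4-low pairs and 64 to 266 for the difference between subclasses. Leaving out pair 1 gave the 20, and leaving out pairs 3 and 4 gave 133 and 148 in the alpha4-low pairs and 266 and 215 between subclasses. Fits without an alpha4-low pair had fewer residual degrees of freedom than the 2 of the full fit, so more calls there are not stronger evidence. The cause of these changes was not tested. Dim probe sets of Aiolos and Eos lie near background, which limits their values.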

Other observations

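When each mouse's mean was subtracted first, so that the likeness to Helios rested on the paired differences, other genes came out on top. Slc26a2, a sulfate transporter gene, led with a correlation of 0.998, and Klre1, a killer cell lectin-like receptor gene, had 0.992. None of the 8 highest by this measure (0 of 8) was among the 8 highest over the uncentred values. D430042O09Rik had 0.99 by this measure and was the 9th of 10406 genes. After centring, the values of a pair mirror each other, so these correlations rest on only 4 paired differences. High values are then common, and Ksr1 with 0.95 was only 120th of 10406 genes. The 99th percentile of 0.79 given above belongs to the uncentred values. The centred correlations are given as descriptions.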
